A study of Homo sapiens with 4 samples.

Results

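miR-101 is a microRNA (miRNA) that human cells make from a pair of genes, MIR101-1 and MIR101-2. Both genes were found by symbol from their Ensembl identifiers, and they are 2 of the 7062 small RNA features counted in this series. They were selected on the measured values, because both were lower in both 52X T4A libraries than in the 52X WT libraries. The difference between the groups is therefore given as a description, without a p-value. Whether the genes passed the thresholds used for all features is stated with the background and again with the processing. Nothing is drawn from it.

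Small RNA was sequenced from HEK293T cells, a human embryonic kidney line that the sample labels also list as HEK293. All cells were transiently transfected with 1.5 μg of plasmid per well and kept in 2.5 μg/ml α-amanitin for 72 h. α-Amanitin poisons the cell's own RNA polymerase II (Pol II), and untransfected cells are eliminated by that time, so the surviving cells depend on the Pol II that the plasmid supplies. In 52X WT the C-terminal domain of Pol II carried its 52 heptad repeats unchanged. In 52X T4A the threonine at position 4 of the repeats was replaced by alanine, which cannot be phosphorylated. Each group had 2 libraries from total RNA, described as biological replicates, and no cells without plasmid or without α-amanitin were measured. The comparison asks how small RNA levels differ when this residue is lost.

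miRNA genes are transcribed by Pol II. The hairpin in the primary transcript is cut out by Drosha and trimmed by Dicer, and one arm of it is loaded into an Argonaute protein, where bases 2 to 8, the seed, select target mRNAs. miR-101-3p is the arm of miR-101 that usually accumulates. It is best known for repressing EZH2, the histone methyltransferase of the Polycomb repressive complex 2, and its loss has been described in several cancers.

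MIR101-1 (ENSG00000199135.1) lies at chr1:65058434-65058508 on the minus strand (GRCh38). It sits in an intron of JAK1, the gene of a tyrosine kinase that signals from cytokine receptors, and on the same strand. MIR101-2 (ENSG00000199065.3) lies at chr9:4850297-4850375 on the plus strand, in an intron of RCL1, a gene needed for ribosomal RNA processing, again on the same strand. A long noncoding RNA gene, ENSG00000228165, is annotated on the opposite strand at MIR101-2. Both positions are those of the RefSeq genes of GRCh38.p14, and the host genes and introns are from GENCODE v44lift37. The host mRNAs were not measured in these libraries.

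The precursor hairpins show what a short read from either gene could look like. They are given 5′ to 3′ as RefSeq lists them (GRCh38.p14), with miR-101-3p in capitals.
MIR101-1: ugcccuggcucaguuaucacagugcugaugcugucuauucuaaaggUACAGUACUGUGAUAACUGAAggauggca
MIR101-2: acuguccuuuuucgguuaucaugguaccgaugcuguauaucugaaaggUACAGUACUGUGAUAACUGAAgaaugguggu
The hairpins of 75 and 79 nt were identical at 61 of 80 aligned positions (76.2%). miR-101-3p, of 21 nt, was found whole in each, at bases 47 to 67 of MIR101-1 and 49 to 69 of MIR101-2. In the genome these are chr1:65058442-65058462 and chr9:4850345-4850365. The longest run common to both hairpins had 27 nt and held the whole of miR-101-3p.

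The mature arms are printed next with their seeds in capitals, since the seed decides which mRNAs a miRNA can pair with. miR-144-3p is added because it was the only other one of 2543 human mature miRNA entries in the RefSeq table that shared bases 2 to 7 with miR-101-3p.
miR-101-3p: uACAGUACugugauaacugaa
miR-101-5p: cAGUUAUCacagugcugaugcu
miR-101-2-5p: uCGGUUAUcaugguaccgaugc
miR-144-3p: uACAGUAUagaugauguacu
No other entry shared bases 2 to 8 with miR-101-3p, and none shared bases 2 to 7 with either 5p arm. The 5p arms, the strands opposite to miR-101-3p in each hairpin, differ: miR-101-5p of MIR101-1 and miR-101-2-5p of MIR101-2 matched at 16 of 23 aligned positions (69.6%) and have different seeds. A read of 21 nt can start at 55 places in the MIR101-1 hairpin, and 7 of these give a read that MIR101-2 could also have produced. At 28 nt no such place is left. Reads of miR-101-3p thus cannot be assigned to one gene by sequence, whereas reads of the 5p arms can.

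The 4 libraries held from 16180790 to 27370127 counts, the largest being 52X T4A replicate 2. miRNAs took from 63.5% of counts, in 52X WT replicate 1, to 75.3%. Replicates differed by much more than counting error, and a chi-square test of their counts gave 317 (52X T4A) and 560 (52X WT) times its degrees of freedom. A list held 14 miRNA genes typical of liver, muscle, blood and neurons. In replicates 1 and 2 these genes summed to 133 and 131 CPM under 52X T4A, and to 105 and 89.9 CPM under 52X WT. Of the 9 that could be tested none was called by edgeR, 4 had an unadjusted p below 0.05, all higher in 52X T4A and all from muscle, and DESeq2 called 2. Over all features 10.3% had such a p, and DESeq2 called 3.42% of those to which it gave an adjusted p. The 4 were MIR1-1 and MIR1-2, with almost equal counts, and MIR133A1 and MIR133A2, with 2 to 29 counts per library. The 2 DESeq2 calls were MIR1-1 and MIR1-2. Such copies can share reads, so these counts of genes overstate the number of separate measurements. The sum can likewise count a shared read more than once. The sum rested mainly on the muscle genes MIR1-1 and MIR1-2 and on MIR486-1 of red blood cells, while liver MIR122 had 8 to 15 counts and MIR223 of white blood cells 2 counts in each library. MIR486-1 went the other way, at 29.4 and 39.9 CPM under 52X T4A against 60.7 and 48.2 CPM under 52X WT. Among the 9 tested, 4 had a log2 fold change below 0. The part of this list in the miR-101 values was not tested. CPM is a count times 1000000 over the library total, here scaled by TMM factors except where stated.

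MIR101-1 had 26228 and 36753 counts in 52X T4A replicates 1 and 2, and 39799 and 45395 counts in 52X WT replicates 1 and 2. These counts correspond to 1657 and 1164 CPM for the 52X T4A libraries, and to 2727 and 2411 CPM for the 52X WT libraries. The groups did not overlap, and the lowest level was that of the deepest library, 52X T4A replicate 2. MIR101-2 had 26303 and 36839 counts in 52X T4A, and 39895 and 45459 counts in 52X WT. Its levels were 1662 and 1167 CPM against 2734 and 2415 CPM, with the libraries in the same order as for MIR101-1. The highest 52X T4A value and the lowest 52X WT value, which the choice of the genes turns on, were a factor of 1.46 apart for MIR101-1 and 1.45 for MIR101-2.

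**Figure D1:**
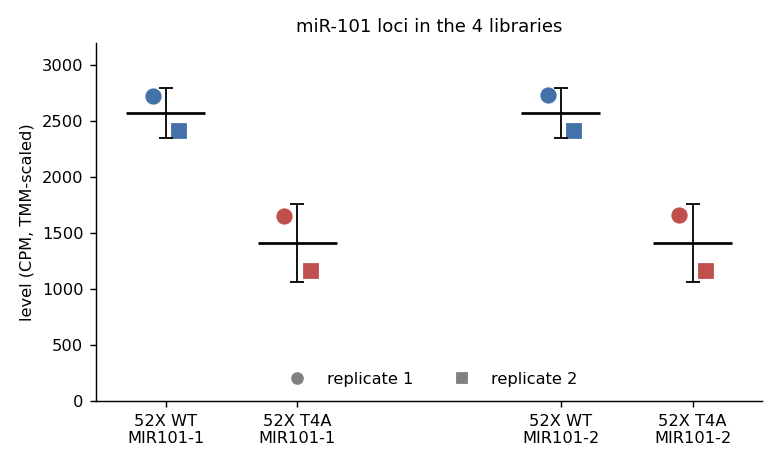
Level of MIR101-1 and MIR101-2 in CPM (vertical axis, linear from 0) in each library, with circles for replicate 1, squares for replicate 2, horizontal bars for group means and error bars for the SD (n = 2). The 52X WT libraries sit between 2411 and 2734 CPM and the 52X T4A libraries between 1164 and 1662 CPM, and the panels of the genes look the same.

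MIR101-1 averaged 2569 ± 223 CPM over the 52X WT libraries and 1411 ± 349 CPM over the 52X T4A libraries (SD, n = 2). MIR101-2 averaged 2574 ± 226 and 1414 ± 350 CPM. In the fit, 52X T4A stood at a log2 fold change of −0.87 for MIR101-1 (standard error, SE, 0.23) and of −0.86 for MIR101-2 (SE 0.23), a level 45.1% lower than in 52X WT. The 52X T4A replicates themselves differed by 0.51 on the log2 scale and the 52X WT replicates by 0.18. Counting error was small beside this. Before TMM scaling MIR101-1 stood at 1621 CPM in 52X T4A replicate 1 (95% Wilson interval 1601 to 1641) and at 1343 in replicate 2 (1329 to 1357). In the 52X WT libraries it stood at 2457 (2433 to 2482) and 2369 (2348 to 2391). These intervals cover counting error only.

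Expressed as a share of miRNA counts, which leaves the other RNA classes out, MIR101-1 took 0.229% and 0.178% in 52X T4A and 0.387% and 0.323% in 52X WT. The groups did not overlap on this scale either, but it uses the same counts that the genes were chosen on and is no separate evidence. Fewer cells holding the miRNA and less of it per cell cannot be told apart in such libraries.

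In the fit across all 1480 features with enough counts (edgeR), a feature was called at a false discovery rate (FDR) below 0.05 and a fold change above 1.5. Neither miR-101 gene was called, and 2 features in all were, or 0.135% of those tested: MIR34C, which was lower in 52X T4A, and MIR203B, which was higher. They are named after their values were seen. DESeq2 made 30 calls among the 877 features to which it gave an adjusted p (3.42%), again without the miR-101 genes. With all 4 libraries in the fit, edgeR did call both without a filter on low counts and with the replicate block. At an unadjusted p below 0.05 there were 152 features (10.3%), and 93 of them (6.28%) were lower in 52X T4A. Levels of both 52X T4A libraries below both 52X WT libraries were found for 314 features, or 21.2%. Among the 621 miRNA features tested there were 167 of these, or 26.9%. Since the genes were chosen by that very pattern, nothing is read from their place among the 314.

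Among the 621 miRNA features tested, MIR101-2 ranked 38th and MIR101-1 39th by mean CPM. Levels are also given per 100 nt of listed length, on which scale the miR-101 genes stood at 2524 and 2653 CPM. The listed length is that of the hairpin and not of the mature arm, so the order on this scale can differ from that by CPM. MIR423, next above by CPM, had 2155 CPM per 100 nt and MIR450B, next below, 2217. Neither neighbour was called: the log2 fold change of MIR423 was −0.19 (SE 0.22) and that of MIR450B −0.07 (SE 0.2), and the first of these turned to 0.01 and the second to 0.11 under the scaling that raised them most. As a description of where the chosen genes lay, 110 of all tested features (7.43%), 24 of them miRNAs, had a lower log2 fold change than MIR101-1.

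**Figure D2:**
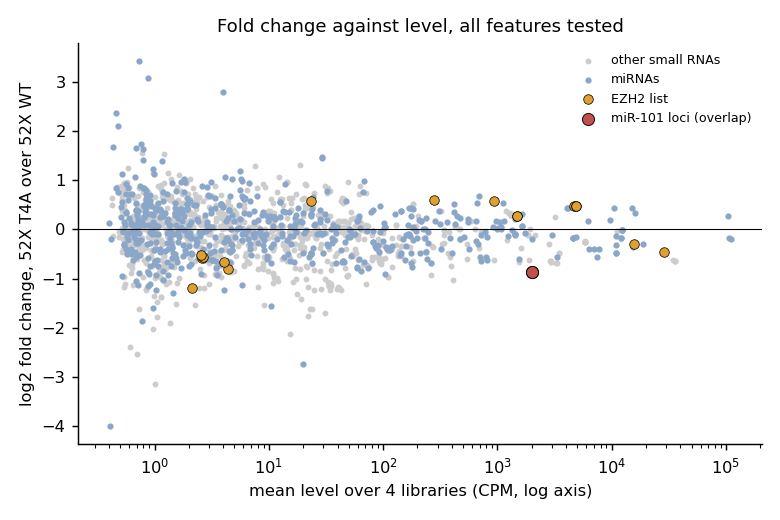
Mean level over the 4 libraries (horizontal axis, CPM, log scale) against log2 fold change, 52X T4A over 52X WT (vertical axis), for the 1480 features tested. Each point is a feature, with miRNAs in blue, miRNAs reported to repress EZH2 in orange and the overlapping miR-101 genes in red at −0.87 and −0.86. They were chosen on this contrast, and 110 features, 24 of them miRNAs, lie lower.

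The split of counts between the genes was not used to choose them, and it needs no scaling of libraries. MIR101-2 exceeded MIR101-1 by 75 and 86 counts under 52X T4A and by 96 and 64 counts under 52X WT. As a share of the MIR101-1 count the excess was 0.286% and 0.234% under 52X T4A, and 0.241% and 0.141% under 52X WT. The excess had the same sign in 4 of 4 libraries. Separate counts of this size would differ by 229 to 301 from counting error alone (1 SD of the difference), so the genes agreed more closely than separate counts would. The log2 ratio of MIR101-2 to MIR101-1 averaged 0.00375 for 52X T4A against 0.00275 for 52X WT, a difference of 0.000992 against a pooled SD of 0.000813. An exact two-sided permutation test gave p = 0.667, where the smallest p that 2 against 2 libraries allow is 0.333. Such a test cannot show a difference here.

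The excess means that at least 64 to 96 reads per library were counted at MIR101-2 and not at MIR101-1. No more than this net difference can be learned about the reads that belong to one gene alone, since the deposited counts do not separate the arms. The values of MIR101-1 and MIR101-2 were accordingly read as a single measurement of miR-101, and not as a pair of genes that agree. Whether one gene or both gave less miR-101 in 52X T4A cannot be told from these counts.

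This was common among miRNAs made from several genes. Of 28 other such miRNAs in a fixed list, 20 had at least 1000 counts at a gene. In 12 of these 20 the totals over the 4 libraries agreed within 2%, as for miR-101, whose totals were 148175 and 148496. miR-9, a neural miRNA with 3 genes, had totals of 367629 to 367668. The widest gap among these 20 was in miR-125b, at 13427 counts for MIR125B2 and 6653 for MIR125B1. The 60 genes of that list, 55 of which passed the filter, had a median log2 fold change of −0.09, against −0.05 for all features tested, and 32 were below 0. None was called by edgeR, 10 had an unadjusted p below 0.05, and DESeq2 called 2 of them, MIR1-1 and MIR1-2, beside 10.3% of all features and the same 3.42%. Lower in 52X T4A with such a p were 3 of the 55, beside 6.28% of all features. Many genes of the list are copies that share reads, so the counts of genes overstate the number of separate measurements. The 2 miR-1 genes, which belong to muscle, had much the same values, and MIR1-1 stood at 46.6 and 39.9 CPM under 52X T4A against 15.1 and 16.4 CPM under 52X WT, with a log2 fold change of 1.46 (SE 0.3, edgeR FDR 0.186).

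**Figure D3:**
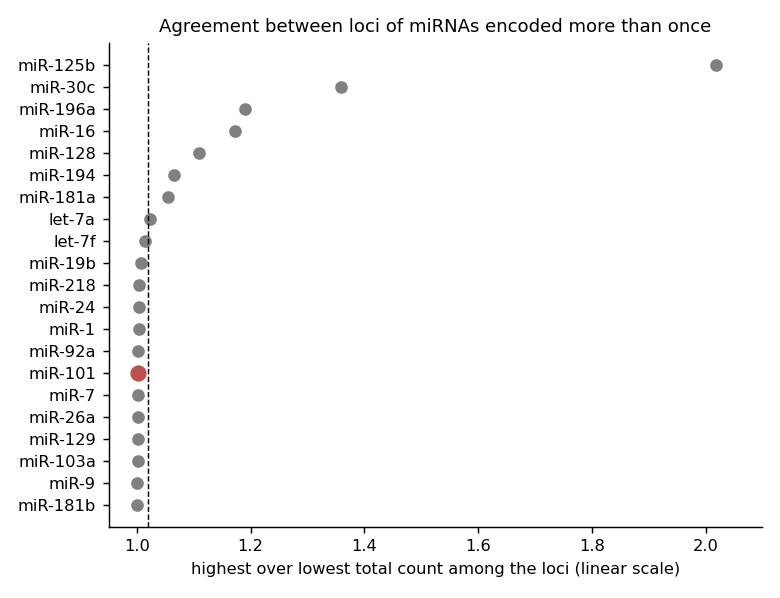
Highest over lowest total count among the genes of each miRNA (horizontal axis, linear), for miR-101 (red) and 20 other miRNAs made from several genes (grey) with at least 1000 counts at a gene. The dashed line marks 2%; miR-101, at 1.002, lies left of it with 12 others, and miR-125b is farthest right at 2.02.

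MIR144 gives the only mature RNA with most of the miR-101-3p seed, and is a gene of red blood cells. Its counts were 0 and 6 under 52X T4A and 0 and 3 under 52X WT, under the filter for testing. A count of 0 allows up to 0.185 CPM of library total in 52X T4A replicate 1 and in 52X WT replicate 1. Its counts were thus very few beside those of miR-101.

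Features close to the miR-101 genes had almost no counts. Of features within 100 kb, MIR3671 lies 591 nt from MIR101-1 on the same strand, at chr1:65057755-65057842, and had 0 counts in every library. RNU6-1176P, a U6 pseudogene 35359 nt away, had 2 and 4 counts in 52X T4A and 2 and 3 in 52X WT. No feature in the files lay within that distance of MIR101-2.

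Other miRNAs reported to repress EZH2 were then examined, as the set that shares the best known target of miR-101. The list held 17 genes, and 16 passed the filter, the exception being MIR214 with 44 counts in all. None was called by edgeR (smallest FDR 0.37) or by DESeq2, and 7 had an unadjusted p below 0.05, of which 2 were lower, beside 10.3% and 6.28% of all features. Their median log2 fold change was −0.02, against −0.05 for all features. Both 52X T4A libraries were below both 52X WT libraries for 5 of the 16 and above for 8 of them. All features gave 21.2% below and 18.9% above, and the tested miRNA features gave 26.9% below. Several of the 16 are copies that share reads, so the counts of genes overstate the number of separate measurements.

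The 5 let-7 genes of the list lay above 0, with log2 fold changes from 0.47 to 0.59. MIRLET7A1 stood at 6098 and 5139 CPM under 52X T4A against 3681 and 4448 CPM under 52X WT, and MIRLET7B had the largest value, 0.59 (SE 0.26, edgeR FDR 0.467). MIR98, which has the let-7 seed, had 0.57 (SE 0.32). The 2 genes of miR-26a, another EZH2 repressor, had 0.27 (SE 0.2), and MIR26A1 was at 1616 and 1612 CPM in 52X T4A against 1324 and 1357 CPM in 52X WT. For these genes the groups did not overlap, and none passed the test.

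Below 0 were MIR25, MIR30D and the scarcer MIR138-1, MIR138-2, MIR217 and 3 genes of miR-124. MIR25, a member of the miR-106b-25 cluster, was at 26500 and 21540 CPM under 52X T4A against 28100 and 37670 CPM under 52X WT (log2 fold change −0.45, SE 0.21). MIR30D was at 15310 and 12930 CPM against 18140 and 16810 CPM (−0.31, SE 0.19). MIR217 had the lowest value, −1.2 (SE 0.4, edgeR FDR 0.37), but only 18 to 52 counts per library. The genes of miR-138 had −0.66 (SE 0.34) and −0.81 (SE 0.36) with 41 to 118 counts per library. None of these passed the test either. The sign of each of the 16 was the same under 4 other scalings.

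Lastly, the features whose levels over the 4 libraries were most like those of MIR101-1 were sought among 753 others whose counts averaged 100 or more. The measure was the Euclidean distance between log2 CPM values, each centred on its own mean. The 5 closest were MIR449C (distance 0.301), MIR221 (0.337), a copy of Y_RNA (ENSG00000199303.1, 0.343), another (ENSG00000201529.1, 0.37) and MIR187 (0.374), against a median of 0.973. The same 5 were closest to MIR101-2. MIR221, a miRNA known for repressing the cell cycle inhibitor CDKN1B, stood at 692 and 585 CPM under 52X T4A against 991 and 974 CPM under 52X WT. MIR449C had 14.2 and 11.6 CPM against 21.2 and 19.8 CPM. MIR187 had 8.59 and 7.57 CPM against 13.1 and 12.9 CPM. These features share libraries and scaling with miR-101, n is 4 libraries, and the 2 copies of Y_RNA can share reads with other copies. They were sought by likeness to MIR101-1, so the shared direction follows from the search.

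**Figure D4:**
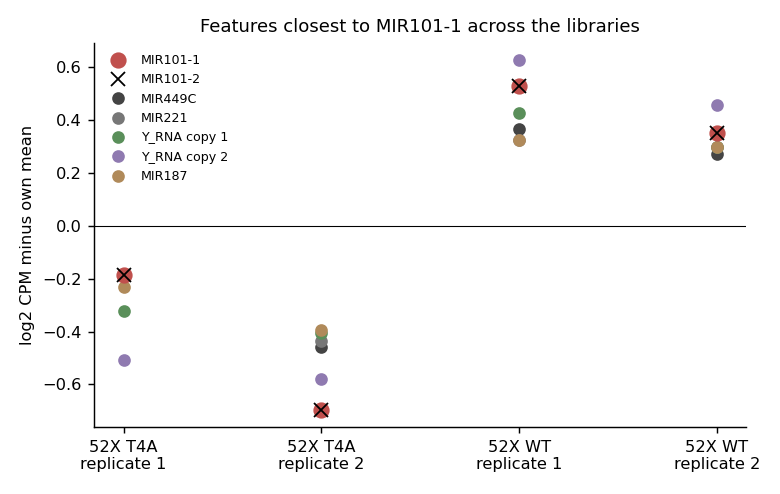
Log2 CPM minus each feature's own mean (vertical axis) in the 4 libraries (horizontal axis) for the miR-101 genes, which overlap, and the 5 features closest to MIR101-1. All lie below their mean in both 52X T4A libraries and above it in both 52X WT libraries, and miR-101 is the lowest in 52X T4A replicate 2. The 5 were picked for likeness to MIR101-1, so the shared direction follows from the search.

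The size of the miR-101 difference was followed through the ways of processing. With all 4 libraries in the fit the log2 fold change of MIR101-1 ran from −0.88 to −0.7, and with 1 library left out from −1.16 to −0.62. Library size alone and upper quartile factors gave the smallest size with all libraries, but moved the median of all features as well, from −0.05 to 0.14 and 0.13. Relative to that median MIR101-1 was at −0.84 and −0.83, against −0.82 with TMM factors. The 52X T4A libraries decided most: without replicate 1 the log2 fold change was −1.16, and without replicate 2 it was −0.62. Without 52X WT replicate 1, the library with the lowest miRNA share, it was −0.88.

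**Figure D5:**
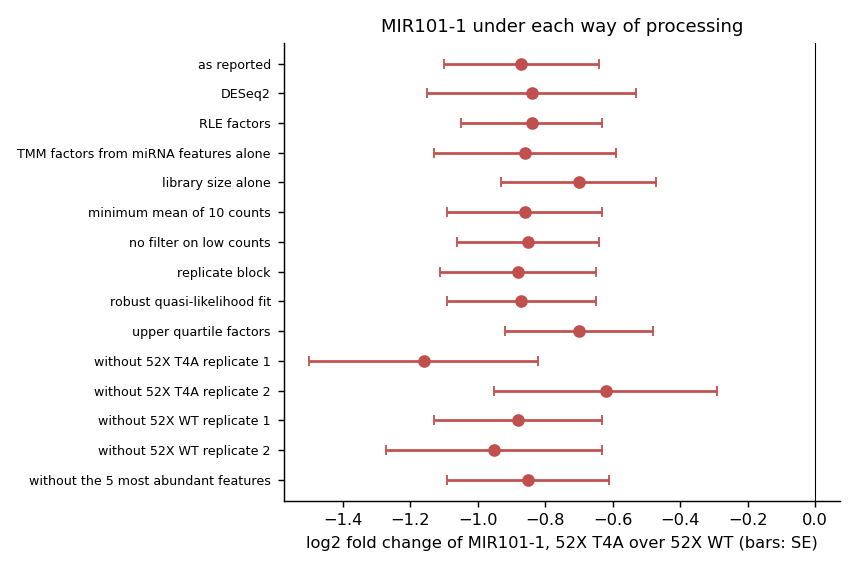
Log2 fold change of MIR101-1, 52X T4A over 52X WT (horizontal axis), under each way of processing (vertical axis), with bars for the SE. All points lie below 0, between −1.16 and −0.62, both ends coming from fits without a 52X T4A library. The sign was largely set by the choice of the genes as lower in both 52X T4A libraries.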

How the data were processed

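The deposited files hold raw read counts per small RNA feature, 1 library a file, with no normalization by the authors. The submitters' processing notes name cutadapt 4.6, Bowtie2 2.3.5.1, featureCounts 1.5.0 and hg38; settings and the treatment of reads that match several places are not given in the sources used here. Where genes that share a mature arm had almost equal counts, as the miR-101 genes did, their counts do not measure each gene separately.

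Identifiers were named from GENCODE v44lift37 (5579 features) or an identical RefSeq position (908). Counts were fitted in edgeR v4.0.16 (quasi-likelihood F test, filterByExpr with a minimum count of 10, TMM factors, Benjamini-Hochberg adjustment), with DESeq2 v1.42.0 as an alternative, and the script was tested on simulated data. The SE is the log2 fold change over the square root of F. Log2 CPM used a prior of 1. Depth was 16180790 to 27370127 counts per library. Adjusted p-values of the main edgeR fit are over all 1480 features, and those of DESeq2 over 877.

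The members and lists were chosen with earlier results of these data known. Named were the miR-101 genes, features within 100 kb, seed relatives, list members, neighbours in level and the 5 closest in pattern. Alternatives covered scaling, filters, tools, the replicate block, abundant features and each library left out. Counting 1 feature per set of shared reads was chosen after the data were seen.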

Additional observations from a re-analysis of the deposited data

How the results depend on the processing

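The log2 fold change of MIR101-1 moved by less than the replicate spread (0.27) in 13 of 14 alternatives and that of MIR101-2 in 14 of 15. Both stayed below 0 in all of them. The genes were chosen as lower in both 52X T4A libraries, so this sign was largely set and nothing is drawn from it. With 1 library left out the log2 fold change ran from −1.16 to −0.62 for each gene, and the lone library was assumed to vary like the other group. With all 4 libraries in the fit, both genes were among the edgeR calls without a filter on low counts and with the replicate block. They were chosen on that contrast, so nothing is drawn from these calls. The number of features called was 2, and 30 with DESeq2, 9 with library size alone, 29 without a filter, 18 with the replicate block and 4 to 218 with a library left out. Features lower in both 52X T4A libraries numbered 314 of 1480, and 195 of 1480 with library size alone. Without a filter they numbered 550 of 3803. With a library left out they numbered 494 to 687, among 1561 to 1636 features, where fewer libraries have to be ordered. The median of the EZH2 list went from −0.02 to 0.15 with library size alone, 0.01 with DESeq2 and 0.02 to 0.06 with a library left out, with 0 to 1 calls (MIR217, without 52X WT replicate 2). The median of all features moved as well, from −0.05 to 0.14 with library size alone, −0.01 with DESeq2 and −0.04 with the replicate block. The median of the multi-gene list went from −0.09 to 0.11 with library size alone and −0.02 with the replicate block. Its calls went from 0 to 2, MIR1-1 and MIR1-2, under library size alone, DESeq2 and the block, and ran from 0 to 4 with a library left out. The difference in the split between the miR-101 genes, 0.000992, ran from 0.00027 to 0.00171 with a library left out. Of the 5 features most like MIR101-1, 1 was found by Pearson correlation (MIR449C), and 1 with a minimum mean of 1000 counts (MIR221), which only MIR221 of the 5 meets. Apart from the cases whose construction is named, the cause was not tested. No label says that a replicate number marks a pairing. Over features, departures from the group means correlated at 0.104 between libraries of one number, and the replicate block gave −0.88 for each miR-101 gene. With 2 libraries a group and a factor of 1.42 between the 52X T4A replicates, replicate spread and not depth limits the precision.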
